A study of Mus musculus with 12 samples.

Results

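The effect of IC100, a humanized antibody against the inflammasome adaptor ASC, was read in the retinal RNA of mice that had oxygen-induced retinopathy (OIR). The comparison takes 7 of the 12 retinas sequenced, 4 from oxygen-exposed mice given placebo (O2-PBS, animals 5 to 8) and 3 from oxygen-exposed mice given IC100 (O2-IC100, animals 9, 11 and 12). Group membership came from the labels. The label O2-IC100 covers 4 retinas, and animal 10 was kept out of the comparison because lens crystallins took most of its counts, and what changes with it added is given beside the results it touches. All mice were C57BL/6J wildtype and were killed at P18, with 1 library per animal. Both oxygen groups were placed in 75% O2 at P7 with their nursing mothers and returned to room air at P12 per the labels, where the study's text gives P11 as the last day in oxygen. PBS or IC100 at 10 µg/g was given intraperitoneally on P12, P14 and P16 per the labels, where the study's design text also names an intravitreal route. A further 4 mice stayed in room air and received PBS (RA-PBS, animals 1 to 4). They did not enter the fit, and their levels are given beside the results as an unexposed reference.

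In this model, high oxygen stops the growth of the immature retinal vessels and prunes part of them. After return to room air the vessel-free retina becomes hypoxic, glia and neurons release VEGF and other angiogenic factors, and disorganized tufts grow toward the vitreous. ASC links inflammasome sensors such as NLRP3 to caspase-1, which matures IL-1β and IL-18 and cleaves gasdermin D, and these steps act on protein, which RNA counts do not measure. Müller glia, the support cells that span the retina, answer injury through LIF, gp130 and STAT3 and by raising intermediate filaments such as GFAP, vimentin and nestin.

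Total counts were 14907143 to 18705357 in the 7 retinas and 24438082 in animal 10. Crystallin genes took 0.00781 to 0.0204% of the counts in the 7 retinas and 58.98% in animal 10, where rod genes took 0.461% against 5.30 to 6.23% in the 7. In the RA-PBS reference, crystallins also took 1.26, 4.51 and 1.45% of the counts of animals 2, 3 and 4, against 0.00691% in animal 1. Y-linked genes were high in O2-IC100 animals 9, 11 and 12 and in O2-PBS animal 8 (259.2 to 372 CPM, where CPM are counts relative to the library total), and low in O2-PBS animals 5 to 7 (8.85 to 11.0 CPM). The Y-linked level, which follows the sex of a mouse, and the treatment therefore cannot be told apart in the 7 retinas except through animal 8. O2-IC100 animal 10 was low (1.31 CPM), so adding it also changes the Y-linked mix of its group. RA-PBS animal 4 was low as well (6.01 CPM), against 239 to 295 CPM in RA-PBS animals 1 to 3. After normalization the rod genes still summed to 16502 CPM in animal 10 against 53270 to 63299 in the 7 retinas. Lens genes, 53.7% of the raw counts of animal 10, summed there to 1920500 normalized CPM, so its normalized CPM stand above its raw shares. A low or a high value in animal 10 below therefore cannot be told apart from its lens share and its scaling. Mitochondrially encoded genes took 2.01 to 2.34% of the counts in O2-PBS and 2.60 to 2.86% in O2-IC100 animals 9, 11 and 12 without overlap. O2-PBS animal 5 held the highest value of its group in 357 of the 624 genes lower in O2-IC100 and in 5063 of all 16352 tested genes. Genes with long transcripts sat lower in O2-IC100, from a median log2 fold change of 0.11 in the shortest of 4 equal length classes to -0.14 in the longest. The part of sex, RNA quality, transcript length and animal 5 in the results below was not tested beyond the values given.

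By the quasi-likelihood F test of edgeR, 624 (3.82%) of 16352 tested genes fell and 165 (1.01%) rose. Calls needed a fold of 1.5 or more, an unadjusted p under 0.05 and an adjusted p (Benjamini-Hochberg) under 0.1. These thresholds are those of the study, and "rose" and "fell" are used below only for genes past all 3. The excess of falls holds at this fold minimum, since without it 2698 genes were lower and 2859 higher. An unadjusted p under 0.05 was found for 6222 of the 16352 tested genes, in either direction. Counts of list members at that level below are to be read beside this share. The median log2 fold change of all tested genes was -0.01, and 8050 of the 16352 values were positive. Counts of positive or negative list members below are to be read beside this share and the trend with transcript length given above. Adding animal 10 left 0 genes past the thresholds with edgeR, 2183 genes with an unadjusted p under 0.05, and 96 higher (0.595%) and 234 lower (1.45%) genes with DESeq2. Of the 789 called genes, 756 could be tested with animal 10, and 649 of them kept their direction. In the libraries with high Y-linked counts alone, O2-PBS animal 8 against the same 3 O2-IC100 animals, 240 genes fell (1.41%) and 86 rose (0.506%), and 774 of the 776 called genes that could be tested kept their direction. The lone O2-PBS retina is there assumed to vary like the O2-IC100 retinas. With the Y-linked level as a covariate in the fit of 7 libraries, 73 genes fell (0.446%) and 21 rose (0.128%), and 782 of the 789 called genes kept their direction. The genes were called on these same retinas, so the counts of kept directions are no independent check. In a fit of 3 groups, with the RA-PBS libraries added, 122 genes fell (0.731%) and 36 rose (0.216%).

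**Figure D1:**
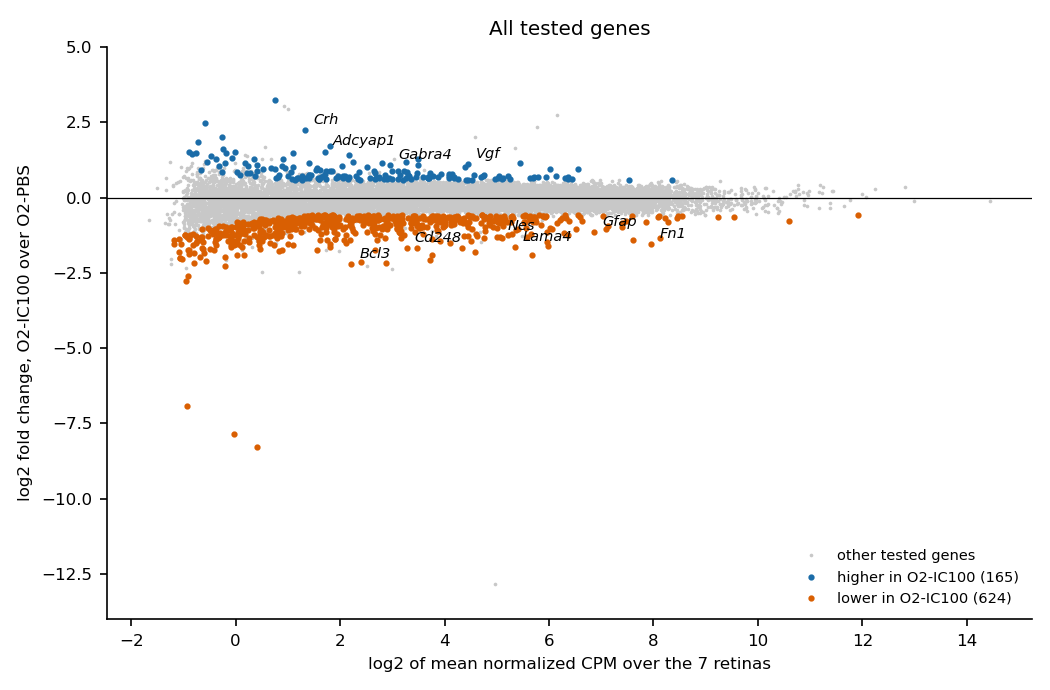
Log2 fold change of O2-IC100 over O2-PBS (vertical axis) against the log2 of the mean normalized CPM over the 7 retinas (horizontal axis) for the 16352 tested genes, where each point is a gene. The 624 genes lower and 165 genes higher at the thresholds are coloured, and the 4 lowest points, set apart from the rest, are genes with a rounded count of 0 in all 3 O2-IC100 retinas, whose fitted value is no bound.

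The comparison is marked by 5 genes, 3 that fell and 2 that rose, and the groups overlapped in 0 of them. Over all tested genes, 17.3% were lower and 18.4% were higher in O2-IC100 without overlap. Cd248 (ENSMUSG00000056481), which encodes endosialin, a surface protein of pericytes and activated stromal cells, stood at 19.5, 9.55, 10.6 and 15.2 normalized CPM in O2-PBS animals 5 to 8 and at 3.59, 4.17 and 5.04 in O2-IC100 animals 9, 11 and 12. The lowest placebo retina was well above the highest IC100 retina, and the log2 fold change was -1.68 (standard error 0.26, adjusted p = 0.00212). RA-PBS retinas held 2.09 to 3.44 CPM of Cd248, and animal 10 held 3.81, a value subject to the lens share given above. Nes (ENSMUSG00000004891) encodes nestin, an intermediate filament of progenitors, reactive glia and growing vessels. Its CPM were 63.4, 35.03, 35.5 and 44.5 in O2-PBS and 18.6, 19.5 and 16.3 in O2-IC100, with animal 5 above the other placebo retinas. The fold change of Nes on the log2 scale was -1.30 (standard error 0.24, adjusted p = 0.0108), its RA-PBS range was 9.92 to 13.7, and animal 10 held 11.6 CPM. Bcl3 (ENSMUSG00000053175), an atypical IκB protein that works in the nucleus with NF-κB p50 and p52, had 9.58, 4.95, 8.93 and 4.55 CPM in O2-PBS and 1.14, 1.30 and 2.05 in O2-IC100. Placebo animals 5 and 7 were the higher pair, and the lowest placebo value was above the highest IC100 value. Bcl3 had the largest fall of these genes, -2.21 on the log2 scale (standard error 0.33, adjusted p = 0.00130), while animal 10 held 6.74 CPM, inside the placebo range, and RA-PBS retinas 0.443 to 0.706.

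Both marker genes that rose encode neuropeptides, and both were low. Crh (ENSMUSG00000049796), corticotropin-releasing hormone, which some amacrine cells make, had 0.945, 0.531, 0.956 and 1.43 CPM in O2-PBS and 4.61, 3.30 and 5.82 in O2-IC100. Its log2 fold change was 2.24 (standard error 0.30, adjusted p = 0.000313). RA-PBS retinas held 0.491 to 1.75 CPM of Crh, so the 3 O2-IC100 retinas lay above both PBS groups, and animal 10 held 0.879. Adcyap1 (ENSMUSG00000024256) encodes PACAP, a peptide of ganglion cells known to protect retinal neurons. It had 1.75, 1.71, 2.10 and 1.62 CPM in O2-PBS and 5.62, 4.92 and 5.04 in O2-IC100, 1.53 on the log2 scale (standard error 0.20, adjusted p = 0.000252). The RA-PBS range of Adcyap1, 2.44 to 4.06 CPM, lay between the oxygen groups, and animal 10 held 0.586. With animal 10 added, the 5 log2 fold changes were -1.72 for Cd248, -1.43 for Nes, -1.39 for Bcl3, 1.94 for Crh and 1.20 for Adcyap1. None passed the thresholds with edgeR, where 0 of all tested genes did. With DESeq2 and animal 10 added, 1 of the 5 rose and 2 fell, Nes among them (-1.42), where 0.595% of all tested genes rose and 1.45% fell. In the libraries with high Y-linked counts the 5 log2 fold changes were -1.83, -1.30, -1.60, 1.67 and 1.67 in the order above. With the Y-linked level as a covariate only Adcyap1 passed (1.71, adjusted p = 0.0830), and Cd248 (-1.82, adjusted p = 0.125), Nes (-1.27, 0.374), Bcl3 (-1.50, 0.184) and Crh (1.61, 0.242) lost the call. All 5 passed in the fit of 3 groups.

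**Figure D2:**
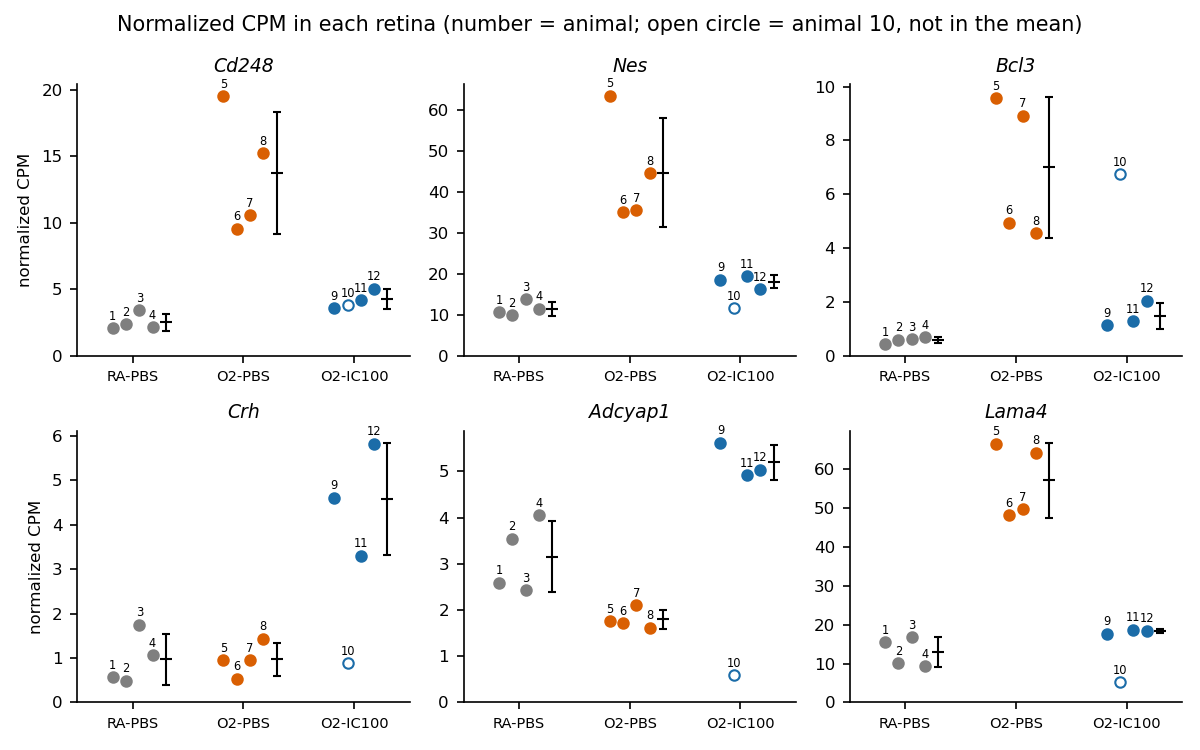
Normalized CPM (vertical axis, from 0) of the 5 marker genes and of Lama4 in each retina of the RA-PBS, O2-PBS and O2-IC100 groups, numbered by animal, with the mean and SD beside each group. The open circle is animal 10, which is left out of the mean, and the filled O2-IC100 points lie outside the O2-PBS range in all 6 genes.

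The 250 bases before the annotated start of 4 genes that the results turn on are given because these genes moved with the lists described below: Bcl3, Nes and Adcyap1 as markers, and Socs3 as the feedback target of STAT3. They are RefSeq promoter windows of GRCm38.p6, read 5′ to 3′ on the gene's strand, and Cd248 and Crh were not matched. The Adcyap1 window is the first of 2. Capitals mark matches on either strand to 3 sets of letters, TTCNNNGAA (the STAT element), GGGCGG (the GC box of SP1-like factors) and TGACG (the half-site of CREB-like factors), and no printed matches overlap.
Bcl3, chr7:19822756-19823005, minus strand: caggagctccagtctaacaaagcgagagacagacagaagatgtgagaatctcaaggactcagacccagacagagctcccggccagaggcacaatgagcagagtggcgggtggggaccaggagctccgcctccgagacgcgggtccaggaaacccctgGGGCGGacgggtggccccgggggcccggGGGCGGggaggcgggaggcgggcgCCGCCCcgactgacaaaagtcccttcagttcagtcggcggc
Socs3, chr11:117969367-117969616, minus strand: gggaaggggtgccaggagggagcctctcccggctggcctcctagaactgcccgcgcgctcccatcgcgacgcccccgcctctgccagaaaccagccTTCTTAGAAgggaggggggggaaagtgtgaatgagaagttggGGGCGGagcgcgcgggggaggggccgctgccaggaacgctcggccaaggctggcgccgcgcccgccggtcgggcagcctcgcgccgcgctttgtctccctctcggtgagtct
Nes, chr3:87970843-87971092, plus strand: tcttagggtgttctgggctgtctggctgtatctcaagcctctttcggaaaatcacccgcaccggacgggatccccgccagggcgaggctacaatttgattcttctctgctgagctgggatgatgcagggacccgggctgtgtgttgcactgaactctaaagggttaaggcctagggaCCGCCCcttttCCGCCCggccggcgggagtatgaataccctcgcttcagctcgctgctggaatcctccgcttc
Adcyap1, chr17:93198767-93199016, plus strand: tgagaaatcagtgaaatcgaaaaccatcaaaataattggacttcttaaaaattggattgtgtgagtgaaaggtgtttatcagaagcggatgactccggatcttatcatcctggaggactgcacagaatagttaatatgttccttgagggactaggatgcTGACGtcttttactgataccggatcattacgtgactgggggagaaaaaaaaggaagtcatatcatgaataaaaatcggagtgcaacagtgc
The Bcl3 window held 3 GC boxes and the Nes window 2, the Socs3 window held a STAT element 154 to 146 bases before the start and a GC box, and the Adcyap1 window held a CREB half-site. The STAT element was in 6.90% of the windows of genes that fell, in 3.27% of those of genes that rose and in 6.09% of those of all tested genes. For the GC box these shares were 46.0, 34.6 and 53.1%, and for the CREB half-site 16.4, 14.4 and 23.9% in the same order. The letters were thus about as frequent, or less frequent, before the called genes as before all tested genes, and a match is only a match of letters.

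Genes of sprouting tips and tufts fell with IC100. Of the 16 tip cell and tuft genes tested, 12 fell and 0 rose, with a median log2 fold change of -1.05 against -0.01 over all genes. In bulk RNA, fewer cells of a type and less RNA per cell cannot be told apart. Esm1, a proteoglycan of tip cells, had 12.5, 6.31, 9.56 and 10.9 CPM in O2-PBS, 2.69, 4.87 and 3.93 in O2-IC100 and 0 to 0.312 in RA-PBS. The O2-IC100 retinas were below every placebo retina and above every room air retina, and the log2 fold change was -1.35 (standard error 0.25, adjusted p = 0.00338). Angpt2, the ligand that loosens vessels through the TIE2 receptor, had 43.8, 20.3, 23.1 and 30.2 CPM in O2-PBS, 9.87, 13.0 and 13.2 in O2-IC100 and 4.42 to 8.00 in RA-PBS (-1.28, adjusted p = 0.0310). Apln, the ligand of the apelin receptor on sprouting endothelium, had 116, 48.8, 69.1 and 92.3 CPM in O2-PBS and 29.4, 42.1 and 37.6 in O2-IC100 (-1.16, adjusted p = 0.0650). The other genes that fell were Pgf (-1.38), Adm (-1.24), Mcam (-1.23), the tip cell Notch ligand Dll4 (-1.17), Nid2 (-1.06), Lamb1 (-1.04), the netrin receptor Unc5b (-0.85), the chemokine receptor Cxcr4 (-0.78) and Pdgfb (-0.70), which recruits pericytes. Adm ranged over 8.32 to 15.7 CPM in O2-PBS and 4.99 to 5.41 in O2-IC100, and Unc5b over 30.0 to 38.6 and 18.1 to 20.9, without overlap. The 4 others (Cd34, Plvap, Kcne3 and Aplnr, named after their values were seen) had log2 fold changes of -0.57 to -0.19. The whole list summed to 373 to 586 CPM in O2-PBS, 223 to 261 in O2-IC100 animals 9, 11 and 12 and 116 to 185 in RA-PBS. In animal 10 it summed to 719 CPM, above every placebo retina, a sum subject to the lens share and scaling of that library.

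Of 20 general endothelial genes, 5 fell and 0 rose, at a median of -0.44. Without overlap between the groups 12 were lower, where 17.3% of all tested genes were. Without O2-PBS animal 6, 9 of them fell. Robo4, an endothelial guidance receptor, went from 18.3 ± 5.65 CPM (SD, n = 4) to 6.99 ± 1.17 (SD, n = 3), a log2 fold change of -1.38 (adjusted p = 0.00461). Eng, which encodes the BMP co-receptor endoglin, had 62.9, 41.0, 39.6 and 64.3 CPM in O2-PBS and 19.6, 26.6 and 21.6 in O2-IC100 (-1.20, adjusted p = 0.0149). Cdh5 (VE-cadherin, the adhesion molecule of endothelial junctions), Ptprb and the receptor Tie1 fell by 0.84, 0.80 and 0.71 on the log2 scale. Kdr, the main VEGF receptor, stood at 203 to 232 CPM in O2-PBS and 155 to 166 in O2-IC100, and its log2 fold change of -0.45 (adjusted p = 0.000313) was under the fold required. The endothelial list summed to 1046 to 1191 CPM in O2-PBS, 776 to 872 in O2-IC100 animals 9, 11 and 12 and 669.96 to 854 in RA-PBS. Animal 10 held 1417 CPM, above all 4 placebo retinas, a sum subject to its lens share and scaling. A sum also follows the most abundant genes of a list. With animal 10 in the fit the median of the list was -0.78, lower than the -0.44 without it.

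Mural cell genes, those of pericytes and vascular smooth muscle, fell in 10 of 17, the marker Cd248 among them, with 0 higher and a median of -0.81. The largest fall was in Tnnt2, cardiac troponin T, at 16.6, 20.6, 28.5 and 13.6 CPM in O2-PBS, 4.55, 4.71 and 6.65 in O2-IC100 and 0 to 1.37 in RA-PBS (-1.90, standard error 0.28, adjusted p = 0.00324). Smooth muscle actin Acta2 varied widely among placebo retinas, at 43.5, 15.4, 17.98 and 36.9 CPM, and was 8.50, 7.31 and 11.0 in O2-IC100 (-1.67, adjusted p = 0.0617). In animal 10 Acta2 stood at 608 CPM. Desmin (Des, -1.50), the NG2 proteoglycan gene Cspg4 (-1.22), Myh11 (-0.97), Tagln (-0.95), Abcc9 (-0.85), the PDGF receptor Pdgfrb (-0.81) and Notch3 (-0.81) fell as well. Pdgfrb, the defining pericyte receptor, had 34.2 to 47.2 CPM in O2-PBS against 20.3 to 27.5 in O2-IC100.

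**Figure D3:**
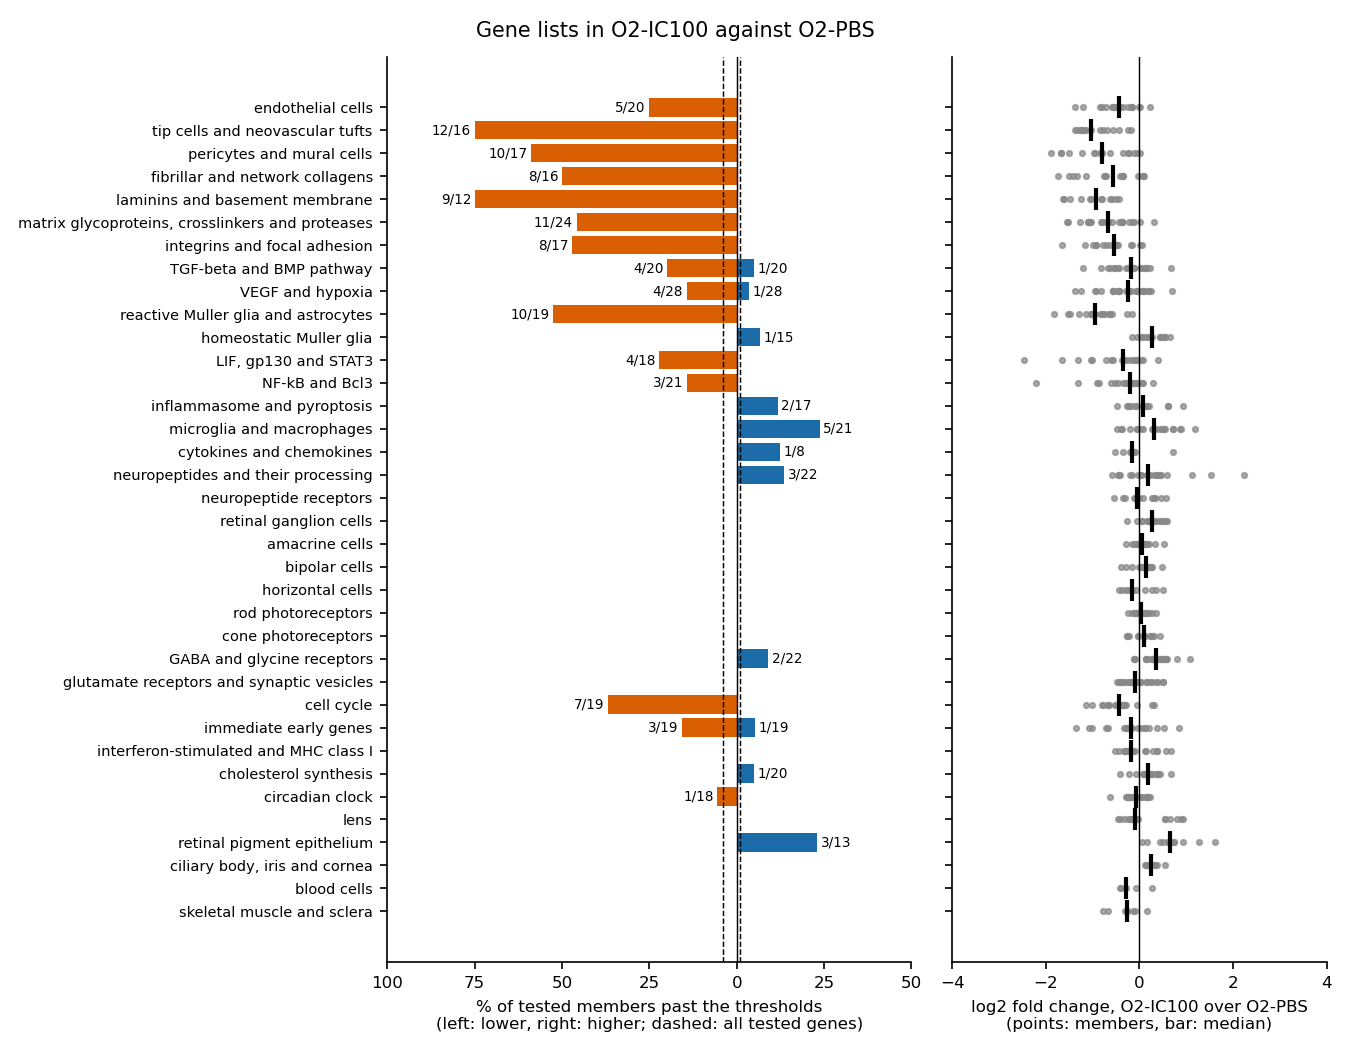
Gene lists (rows) in O2-IC100 against O2-PBS. The left panel gives the percent of tested members that fell (left) or rose (right) with their counts, and dashed lines mark the percents over all tested genes; the right panel gives each member's log2 fold change as a point and the median as a bar. The 36 lists drawn were chosen with earlier results known, and in the left panel the tip cell (12 of 16) and basement membrane (9 of 12) lists have the largest percents that fell.

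Basement membrane and matrix genes formed the other large block that fell. Of 12 laminin and basement membrane genes, 9 fell and 0 rose, at a median of -0.93. Lama4, the laminin chain of vessel walls, had 66.6, 48.2, 49.7 and 64.3 CPM in O2-PBS and 17.7, 18.7 and 18.5 in O2-IC100, close to the 9.30 to 16.8 CPM of RA-PBS. Only 1 tested gene had a smaller adjusted p (-1.64, standard error 0.12, adjusted p = 2.77e-05). The perlecan gene Hspg2 fell by 1.61, nidogen Nid1 by 1.49, and the laminin chains Lamc1, Lamb1, Lamb2, Lama2 and Lama5 by 1.26, 1.04, 0.83, 0.81 and 0.63 on the log2 scale. Collagens fell in 8 of 16, with 0 higher and a median of -0.57. Col4a1 and Col4a2, the chains of the vessel basement membrane, had 377 ± 103 and 267 ± 79.7 CPM in O2-PBS (SD, n = 4) and 149 ± 15.7 and 99.99 ± 8.38 in O2-IC100 (SD, n = 3), log2 fold changes of -1.34 and -1.42. The fibrillar collagens Col1a1 (-1.74), Col3a1 (-1.52) and Col1a2 (-1.15) fell too, and animal 6 held the highest value of each. Col1a1 had 7.49, 12.7, 7.78 and 8.53 CPM in O2-PBS and 2.81, 2.16 and 3.21 in O2-IC100, and its log2 fold change was -1.54 without animal 6. The last members that fell were Col5a2 (-0.76), Col5a1 (-0.73) and Col15a1 (-0.72).

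Matrix glycoproteins, crosslinkers and proteases fell in 11 of 24, with 0 higher and a median of -0.67. Fibronectin, Fn1, had 512, 255, 289 and 328 CPM in O2-PBS, 119.7, 126 and 110.4 in O2-IC100 and 55.4 to 128 in RA-PBS (-1.54, standard error 0.28, adjusted p = 0.0160). The protease inhibitor Timp1 fell by 1.53, although its groups lay close, at 1.24 to 5.06 against 0.887 to 1.02 CPM. Lysyl oxidases crosslink collagen, and Loxl2 (-1.04) and Loxl4 (-0.74) fell together with transglutaminase Tgm2 (-1.10), the collagen chaperone Serpinh1 (-0.67), Tgfbi (-0.82), Emilin1 (-0.59), Adamts4 (-1.06) and Adamts8 (-1.11). Among integrins and focal adhesion genes 8 of 17 fell and 0 rose, at a median of -0.56. Itgb3, a subunit of the vitronectin receptor of angiogenic endothelium, had 6.34, 4.07, 4.53 and 4.80 CPM in O2-PBS and 0.957, 2.00 and 1.72 in O2-IC100 (-1.65, adjusted p = 0.000883). Itga5 (-0.99), Itga1 (-0.93), moesin (Msn, -1.17), Myh9 (-0.94), Flna (-0.78), Vcl (-0.72) and Tln1 (-0.64) were the others.

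In several matrix genes animal 10 went against its group, with values subject to its lens share and scaling as given above. It held 1389 CPM of Nid1, 1008 of Hspg2 and 3226 of Col4a1, each above all 4 placebo retinas, whereas Lama4 and Fn1 stood at 5.13 and 38.4, below all others of both oxygen groups. Adding it turned the log2 fold change of Nid1 to 2.10, of Hspg2 to 1.62 and of Col4a1 to 1.28, and the median of the basement membrane list from -0.93 to 0.60. The medians of collagens (0.0050), matrix glycoproteins (-0.054), integrins (-0.049) and mural genes (-0.36) came to lie nearer 0 or above it, and that of the tip cell list was -0.98. Without O2-PBS animal 5, 8 of 12 basement membrane, 11 of 16 tip cell, 9 mural and 5 endothelial genes fell, where 2.82% of all tested genes did. In the libraries with high Y-linked counts the numbers were 9, 12, 11 and 7. With the Y-linked covariate they were 2, 4, 2 and 4, against 0.446% of all tested genes, and in the fit of 3 groups 4, 6, 5 and 5, against 0.731%. Collagens, matrix glycoproteins and integrins had 1 member each that fell with the covariate, and 1, 3 and 6 in the fit of 3 groups.

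**Figure D4:**
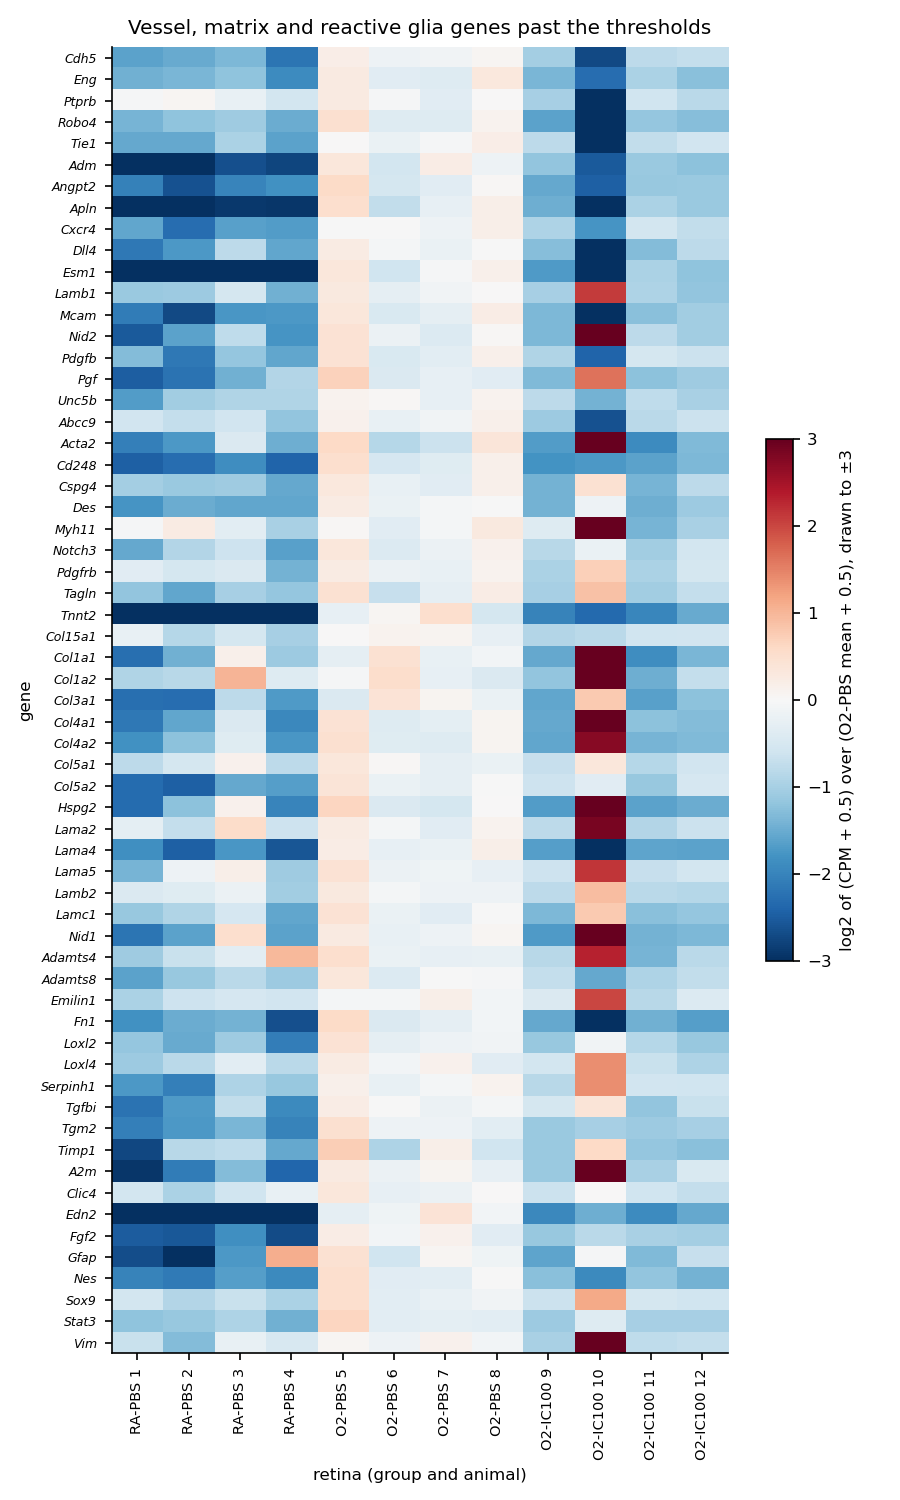
Heat map of 61 vessel, matrix and reactive glia genes past the thresholds (rows) in the 12 retinas (columns), as log2 of the CPM plus 0.5 over the O2-PBS mean plus 0.5, drawn to ±3. Values of O2-IC100 animals 9, 11 and 12 are blue (lower than the O2-PBS mean) in every row, while animal 10 mixes dark red matrix genes such as Nid1 and Col4a1 with dark blue endothelial genes such as Cdh5.

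In the VEGF and hypoxia list 4 of 28 genes fell and 1 rose, at a median of -0.25. Vegfa, the main hypoxia-induced angiogenic factor, had 535, 437, 510.5 and 498 CPM in O2-PBS, 346, 392 and 363 in O2-IC100 and 204 to 224 in RA-PBS. The groups did not overlap and the adjusted p was 0.00122, but its log2 fold change, -0.43 with a standard error of 0.07, was short of the fold required. Pgf, a ligand of the receptor FLT1, had 8.57, 3.60, 4.21 and 3.92 CPM in O2-PBS, with animal 5 apart, and 1.74, 1.89 and 2.16 in O2-IC100. Adrenomedullin (Adm, -1.24), the HIF hydroxylase and HIF target Egln3 (-0.95, 13.7 to 23.1 against 8.26 to 10.0 CPM) and the lymphatic VEGF receptor Flt4 (-0.92) fell, and Vegfc, a ligand of that receptor, rose (0.70, 1.35 to 2.18 against 2.60 to 3.79 CPM). Hif1a RNA had a log2 fold change of 0.18 (adjusted p = 0.0318). In the TGF-β and BMP list 4 of 20 fell, Eng, Tgfbr2 (-0.82), Ltbp1 (-0.66) and the endothelial BMP receptor Acvrl1 (-0.63), and Id2, a target of BMP signaling, rose (0.67). Ltbp1 was -0.41 without O2-PBS animal 5 and lost the call. With animal 10 added, the medians of the VEGF and TGF-β lists were -0.11 and 0.15.

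Reactive glia genes fell in 10 of 19, with 0 higher and a median of -0.94. Edn2, an endothelin that stressed photoreceptors are known to release, was placed in this list as an injury gene and fell most, from 28.5, 31.6, 45.8 and 32.6 CPM in O2-PBS to 8.68, 8.98 and 11.7 in O2-IC100 (-1.82, standard error 0.18, adjusted p = 0.000319), where RA-PBS retinas held 0.327 to 2.19. Gfap had 209.6, 101, 158 and 139 CPM in O2-PBS and 50.03, 60.1 and 94.3 in O2-IC100, with no overlap but little room between animals 6 and 12 (-1.15, adjusted p = 0.0687). RA-PBS animal 4 held 322 CPM of Gfap against 11.7 to 46.0 in the other room air retinas. Vimentin (Vim) was tight, at 401, 346, 421 and 362 against 195, 226 and 232 CPM (-0.81, adjusted p = 7.32e-05), and was 3424 in animal 10. The growth factor Fgf2, which Müller cells raise under stress, fell from 117 ± 18.9 (SD, n = 4) to 56.6 ± 3.69 CPM (SD, n = 3) (-1.04). A2m (-0.83), Clic4 (-0.66) and Sox9 (-0.59) completed the list of falls with Nes, Timp1 and Stat3. Without animal 5, 7 of the 18 that could then be tested fell, and Sox9, at -0.38, was no longer among them. With O2-IC100 animal 9, 11 or 12 left out 7, 6 and 7 fell, 3 fell with the Y-linked covariate, and with animal 10 added the median was -0.21.

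The LIF, gp130 and STAT3 pathway fell in 4 of 18 genes, at a median of -0.34, with 0 higher. Stat3 had 272, 140.5, 142 and 139.9 CPM in O2-PBS, where animal 5 stood far above the other 3, and 80.8, 87.0 and 86.3 in O2-IC100 (-1.03, standard error 0.30, adjusted p = 0.0621). Socs3, the feedback inhibitor that STAT3 induces and whose window is printed above, had 29.3, 9.85, 13.4 and 9.97 CPM in O2-PBS and 5.51, 3.14 and 6.10 in O2-IC100 (-1.66, adjusted p = 0.0789). Cebpd fell by 1.31 and the gp130 gene Il6st by 0.60. All 4 were highest in animal 5. Without it 4 of the 18 fell, among them Stat3 (-0.73), Socs3 (-1.17) and Cebpd (-0.96), while Il6st (-0.44) was under the fold required. Without O2-IC100 animal 12, 0 of the list passed, and without animal 9 or 11, 2 did. Leaving out animal 9, 11 or 12 brought the adjusted p of Stat3 to 0.158, 0.150 and 0.151 and that of Socs3 to 0.164, 0.201 and 0.148. With the Y-linked covariate 0 passed. In the NF-κB list Bcl3 and the TNF family receptors Tnfrsf12a (-0.91) and Tnfrsf1a (-0.86) fell and 18 of 21 genes did not pass, at a median of -0.21. Without animal 5, 1 gene of this list fell and Tnfrsf12a stood at -0.55. Without O2-IC100 animal 11, 1 gene fell as well, and with the Y-linked covariate 0 did. With animal 10 added, the medians of the LIF and NF-κB lists were -0.21 and -0.20.

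Homeostatic Müller genes had positive log2 fold changes in 13 of 15, with a median of 0.27, and 1 passed. Aqp4, the water channel of Müller endfeet, had 61.1, 63.5, 66.8 and 63.9 CPM in O2-PBS, 93.5, 108 and 99.2 in O2-IC100 and 74.3 to 124 in RA-PBS. Its groups were tight and did not overlap (0.65, standard error 0.06, adjusted p = 6.37e-05). Apoe (0.55, adjusted p = 0.000208) and the retinoid carrier Rlbp1 (0.43, adjusted p = 0.00123) were under the fold required. Animal 10 held 17.1 CPM of Aqp4, and with it added the median of the list was 0.32.

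**Figure D5:**
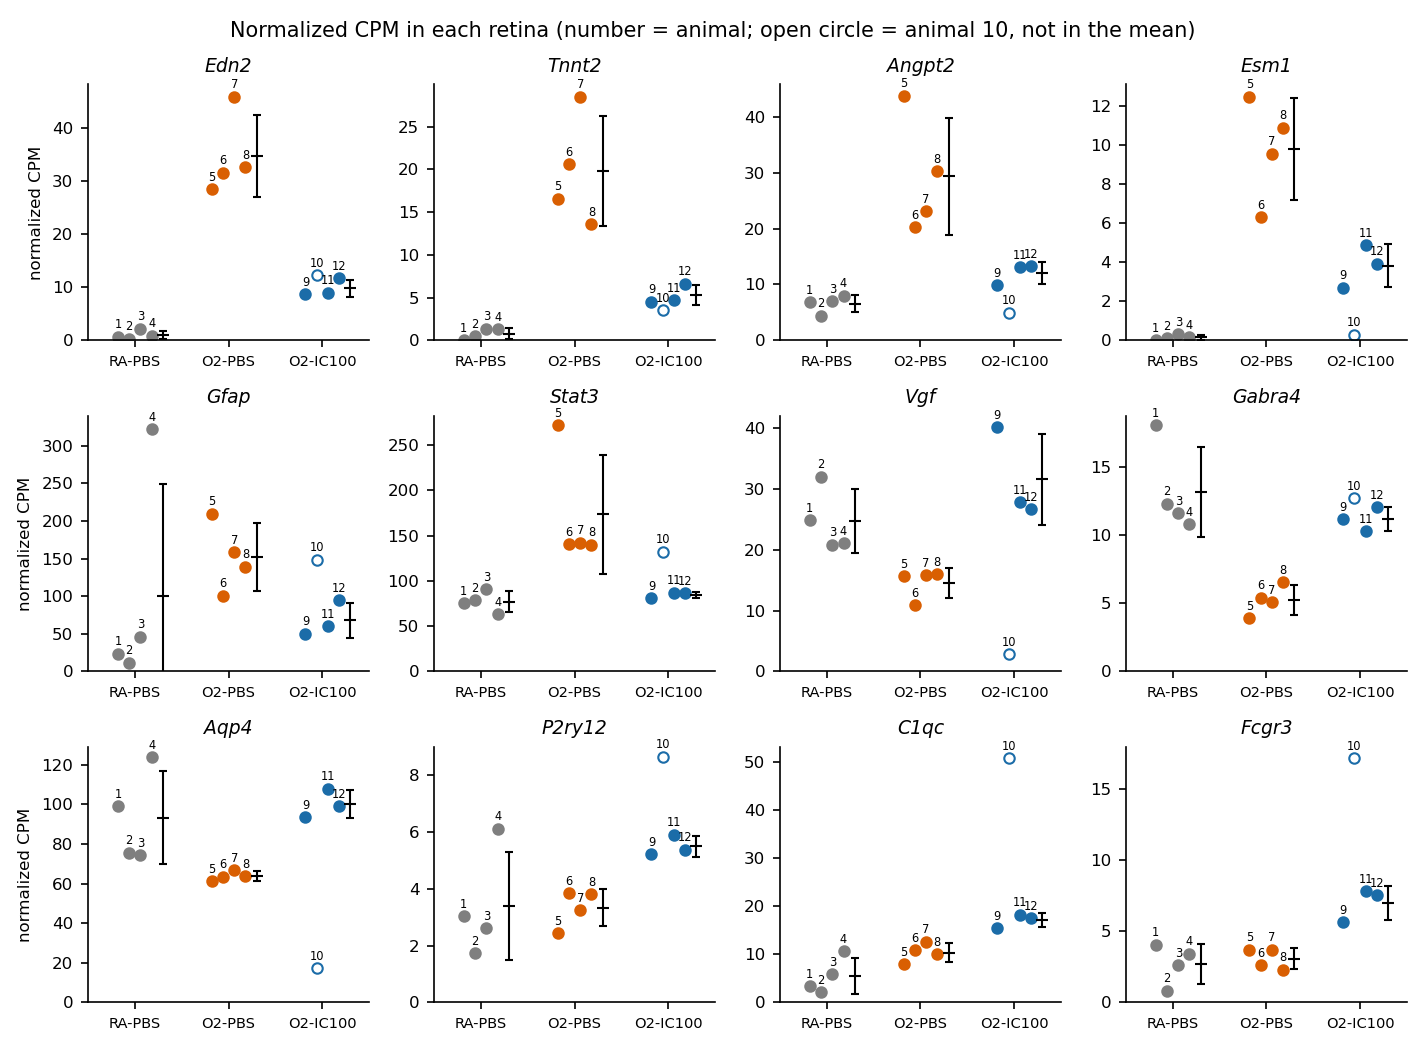
Normalized CPM (vertical axes, from 0) of 12 genes in each retina of the RA-PBS, O2-PBS and O2-IC100 groups, numbered by animal, with the mean and SD beside each group. The open circle is animal 10, which is left out of the mean; the first 6 panels show genes that fell and the last 6 genes that rose in O2-IC100.

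Of 24 genes of the inflammasome and pyroptosis pathway, in which the antibody's target works, 17 had enough counts to be tested. By edgeR 2 rose, 0 fell and the median was 0.07, and by DESeq2 and limma voom the counts were the same. At an unadjusted p under 0.05, 4 were higher and 1 was lower, where 6222 of all 16352 tested genes reached that level. Pycard, the gene of ASC itself, had 2.77, 3.60, 3.57 and 3.61 CPM in O2-PBS and 2.03, 1.89 and 4.71 in O2-IC100, overlapping groups (-0.23, standard error 0.29, adjusted p = 0.592). Gsdmd, the pore-forming gasdermin, had 2.16, 1.42, 2.17 and 2.12 and 1.26, 2.11 and 2.22 CPM (-0.07, standard error 0.28, adjusted p = 0.881). With standard errors of this size at such low levels, neither direction can be read. Pycard was -0.77 without O2-IC100 animal 12 and then passed the thresholds (adjusted p = 0.0441). Il18, a cytokine matured by caspase-1, had 3.78, 4.31, 3.63 and 4.86 CPM in O2-PBS, 6.04, 5.79 and 7.20 in O2-IC100 and 4.53 to 7.47 in RA-PBS, and rose (0.61, adjusted p = 0.0162). The DNA sensor Aim2 rose as well (0.62, 2.18 to 3.25 against 3.71 to 4.87 CPM), and Nek7, a partner of NLRP3, had a log2 fold change of 0.16 (adjusted p = 0.0674). The count of 2 higher genes was 1 when animal 5, 6, 7, 11 or 12 was left out, 3 without animal 9, and 0 with high Y-linked counts alone, with the Y-linked covariate, in the fit of 3 groups and with a correction for length and GC content. The median was 0.31 with animal 10 added. The other genes of the study's qRT-PCR had too few counts for a test. Il1b had 3, 2, 3 and 2 counts in O2-PBS and 2, 1 and 4 in O2-IC100, Tnf 1, 2, 4 and 3 against 1, 0 and 2, Nlrp3 7, 6, 10 and 6 against 6, 8 and 3, and Il6 1, 0, 0 and 1 against 0 in each. No direction can be read from these.

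Microglia and macrophage genes rose in 5 of 21 and fell in 0, at a median of 0.30. Log2 fold changes were positive in 15 and negative in 6 of them, from -0.47 to 1.19. At an unadjusted p under 0.05, 10 were higher and 1, Itgam, was lower, where 6222 of all 16352 tested genes reached that level. Fcgr3, an activating Fc receptor, had 3.71, 2.60, 3.70 and 2.31 CPM in O2-PBS and 5.62, 7.79 and 7.54 in O2-IC100 (1.19, standard error 0.20, adjusted p = 0.00130). The complement gene C1qc (7.96, 10.8, 12.6 and 10.1 against 15.4, 18.2 and 17.5 CPM, 0.72) and the homeostatic receptor P2ry12 (2.43, 3.83, 3.25 and 3.80 against 5.21, 5.90 and 5.38 CPM, 0.72) rose without overlap. Lyz2 (0.87) and Tyrobp (0.88) rose with overlapping groups, and Csf1r, the growth factor receptor of microglia, did not pass (0.29, adjusted p = 0.0859). The list summed to 161 to 206 CPM in O2-PBS, 195 to 244 in O2-IC100, 81.3 to 162 in RA-PBS and 1077 in animal 10, so the oxygen groups overlapped in this sum. Without animal 5, 5 genes rose (0.882% of all tested genes did), and 6 rose in the libraries with high Y-linked counts. With the Y-linked covariate 1 rose, and in the fit of 3 groups 0 did. With animal 10 added the median was 1.10, with 0 higher by edgeR and 6 by DESeq2. Only 8 of 20 cytokines and chemokines could be tested, and Il33, an alarmin of Müller glia, rose (30.2, 27.3, 28.9 and 29.7 against 43.1, 55.5 and 44.6 CPM, 0.72, adjusted p = 0.000243). Interferon-stimulated and MHC class I genes had 0 of 20 past the thresholds by edgeR, DESeq2 and limma voom, and 4 lower and 1 higher at an unadjusted p under 0.05.

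A few neuronal genes rose beside Crh and Adcyap1. Of 22 neuropeptide and processing genes 3 rose, Crh, Adcyap1 and Vgf, and 0 fell, at a median of 0.18. The markers were chosen with earlier results known, so this count adds only Vgf to them. Vgf, a neurotrophin-induced secreted precursor, had 15.7, 10.9, 15.8 and 15.9 CPM in O2-PBS, 40.2, 27.8 and 26.6 in O2-IC100 and 20.8 to 32.0 in RA-PBS (1.12, standard error 0.17, adjusted p = 0.00239). The granin Scg2 was 0.46 (adjusted p = 0.000656), under the fold required. Of 15 neuropeptide receptor genes 0 passed by edgeR, DESeq2 or limma voom, with 2 in each direction at an unadjusted p under 0.05. Bdnf, a neurotrophin counted here with the immediate early genes, rose from 6.68, 6.66, 7.59 and 8.16 to 14.8, 12.6 and 11.9 CPM (0.85, adjusted p = 0.000762), while Egr3 (-1.08), Atf3 (-1.02) and Fosb (-0.68) of the same list fell. Atf3 was -0.67 without O2-PBS animal 5, still past the thresholds, and Egr3 was -0.68 without O2-IC100 animal 12, with the call lost. Without O2-IC100 animal 11 or 12, 1 gene of the list fell. The neuropeptide median was -0.072 with animal 10 added.

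GABA and glycine receptor genes had positive log2 fold changes in 19 of 22 and a median of 0.34 (0.11 with animal 10 added). Of these genes 12 were higher without overlap, where 18.4% of all tested genes were. The thresholds were passed by 2 of the 22, by 0 with the Y-linked covariate and by 3 in the fit of 3 groups. Gabra4, a GABA-A receptor subunit, had 3.91, 5.43, 5.10 and 6.54 CPM in O2-PBS, 11.2, 10.3 and 12.1 in O2-IC100 and 10.8 to 18.1 in RA-PBS (1.09, standard error 0.16, adjusted p = 0.000564). Glra2, a glycine receptor subunit, had 10.6, 11.6, 11.3 and 13.1 and 20.4, 20.8 and 19.2 CPM, nearly without spread within groups (0.79, adjusted p = 0.000252). Retinal ganglion cell genes had 16 of 18 positive values and a median of 0.26 (0.042 with animal 10 added) with 0 past the thresholds by edgeR or DESeq2 and 1 higher by limma voom. At an unadjusted p under 0.05, 10 ganglion cell genes were higher and 1 was lower, and Nefl, a neurofilament of their axons, had 0.28 (adjusted p = 0.00271). Amacrine (16 genes, median 0.04), bipolar (15, 0.14), horizontal (11, -0.15), rod (16, 0.04) and cone (13, 0.09) genes had 0 past the thresholds by edgeR, DESeq2 and limma voom. At an unadjusted p under 0.05, 2, 6, 3, 3 and 3 of them were higher and 0, 3, 5, 2 and 3 lower. Of all 16352 tested genes, 6222 reached that level. Glutamate receptor and synaptic vesicle genes had 0 of 26 past the thresholds by the same 3 tools, and 7 in each direction at an unadjusted p under 0.05.

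Pigment cell genes moved with the groups. Retinal pigment epithelium, which can come along with a dissected retina, gave 13 tested genes, all positive, with a median of 0.64 and 3 that rose. These were Pmel (7.49, 9.32, 6.76 and 4.42 against 24.1, 11.5 and 15.5 CPM, 1.28), Mlana (1.62) and Oca2 (0.74), which serve melanin formation. DESeq2 called 4 and limma voom 8 of the list. Without O2-IC100 animal 9, 1 rose and Mlana, at 0.84 (adjusted p = 0.221), lost the call, and with the Y-linked covariate or in the fit of 3 groups 0 rose. Rpe65, the defining isomerase of the visual cycle, had 8.77, 11.8, 2.74 and 11.9 CPM in O2-PBS and 13.0, 19.7 and 17.3 in O2-IC100 (0.92, adjusted p = 0.217). The list shares Rlbp1 with the homeostatic Müller list, so its values are not those of pigment cells alone. It summed to 377 to 526 CPM in O2-PBS, 609 to 626 in O2-IC100, 740 to 826 in RA-PBS and 11070 in animal 10. How much pigment epithelium was taken along was not tested. Serpine3, a serpin with high counts in animal 10 as the pigment genes had, stood at 0.742, 2.89, 2.10 and 1.31 CPM in O2-PBS, 4.49, 4.11 and 8.92 in O2-IC100 and 385 in animal 10 (1.71). Lens (16 tested), blood (5), cornea and ciliary body (8) and muscle and sclera (8) genes had 0 past the thresholds by edgeR, and 1, 0, 2 and 0 were higher at an unadjusted p under 0.05. The lens result depended on the tool and the library, with 4 higher genes by limma voom, 5 in the libraries with high Y-linked counts and 7 without O2-PBS animal 6. By DESeq2 and limma voom the other 3 lists also had 0.

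Cell division genes fell in 7 of 19, with 0 higher and a median of -0.44. Mki67, the Ki-67 antigen of cycling cells, had 8.77, 10.2, 12.2 and 11.2 CPM in O2-PBS, 4.43, 6.17 and 7.48 in O2-IC100 and 0.253 to 2.75 in RA-PBS (-0.81, adjusted p = 0.00476). Top2a (-0.78), Birc5 (-1.14), Ccnb2 (-0.67), the replication helicase genes Mcm3 (-1.01) and Mcm5 (-0.66) and cyclin D1 (Ccnd1, -0.67) fell with it. The first 6 had means under 9 CPM over the 7 retinas, and Ccnd1 stood at 44.6 to 50.6 against 27.4 to 31.7 CPM. Mcm5 was -0.996 without O2-IC100 animal 12, still past the thresholds, and lost the call when animal 6, 7, 8, 9 or 11 was left out. With the Y-linked covariate 2 members fell, and in the fit of 3 groups 1. In cholesterol synthesis 1 of 20 genes rose, the isomerase Idi1 (0.66), and 1 of 18 clock genes fell, Bhlhe40 (-0.64). Over all tested genes 1.01% rose and 3.82% fell, so these single calls describe the genes and not their lists.

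Among the 15 genes with the largest change in each direction, with mean levels of 1 CPM or more and no overlap between the groups, several are in no list. Lad1, ladinin, a basement membrane anchoring protein of epithelia, fell from 27.7, 17.2, 20.4 and 12.9 CPM in O2-PBS to 3.83, 4.00 and 5.98 in O2-IC100, where RA-PBS held 0.327 to 1.94 (-2.08, adjusted p = 0.00272). Muc2, a secreted mucin, fell from 52.5 to 122 to 19.7 to 20.4 CPM (-1.90), with the highest value in animal 5. Col6a3 (-2.15, 7.20 to 9.69 against 1.03 to 2.38 CPM), Gpihbp1 (-1.90), which carries lipoprotein lipase across capillary endothelium, Matn4 (-1.90), the TNF receptor family member Tnfrsf9 (-1.77), Mroh5 (-1.75) and Exoc3l2 (-1.69) fell at low levels. Atp2a1, the calcium pump of fast skeletal muscle, fell from 2.56, 9.61, 2.49 and 2.12 CPM to 1.32, 1.30 and 1.16 (-1.74), with animal 6 far above the others and a value of -0.92 without it. That retina also held 61 counts of the muscle myosin Myh1 and 262 of the keratin Krt5 against at most 7 in the other 6 for either gene. Rpl14-ps1, a processed pseudogene whose reads may be shared with Rpl14, is listed at 0 in O2-IC100 and in RA-PBS and at 1.18 to 4.78 CPM in O2-PBS, so no fold is given.

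Of the genes that rose, Lipg, endothelial lipase, had 1.89, 2.60, 3.83 and 2.24 CPM in O2-PBS, 7.06, 5.52 and 8.42 in O2-IC100 and 2.12 to 3.71 in RA-PBS (1.40, standard error 0.23, adjusted p = 0.00107). Olfm4, a secreted glycoprotein, had 5.26, 6.90, 5.99 and 6.48 CPM in O2-PBS, 12.8, 15.7 and 13.6 in O2-IC100 and 13.4 to 19.8 in RA-PBS (1.19, adjusted p = 0.000135). Of its O2-IC100 values, 2 of 3 were within the room air range and the other was below it. The splicing factor Esrp1 (1.29, 0.607 to 1.47 against 2.65 to 3.05 CPM), the neuropeptide S receptor Npsr1 (1.26) and the medium-chain acyl-CoA synthetase Acsm2 (1.14) rose at low levels. Gm9762 (3.25), Gm14698 (1.15), Dynlt1b (1.15) and ENSMUSG00000121810 (1.14) are predicted genes or near-identical copies, and their counts are uncertain. ENSMUSG00000121810 was 0.68 without O2-IC100 animal 12 and lost the call.

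The study's text names 19 genes as raised by oxygen and lowered by IC100 and 9 as the reverse. These were chosen on the same retinas and are no independent evidence of a direction. Of the 19, each had a negative log2 fold change and 15 fell, and outside the lists above these were Prss56, a serine protease of Müller glia (-1.46), Aoc3 (-0.88), the tubulin deglutamylase gene Agtpbp1 (-0.68) and the proton-sensing receptor Gpr4 (-0.84). Of the 9, each had a positive value and 3 rose, the growth factor Hgf (2.77, 2.24, 2.74 and 2.49 against 4.61, 4.82 and 4.82 CPM, 0.89), Cdh18 (0.66) and Nap1l2 (0.62). In animal 10 Hgf stood at 0.586 CPM and Nap1l2 at 8.06, below all others.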

How the data were processed

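Retinal RNA of 12 mice was measured by RNA-seq, 4 each labelled RA-PBS, O2-PBS and O2-IC100, with 1 library per animal. The authors selected polyA RNA, read it as 150 bp pairs, pseudoaligned the reads to the mouse GRCm39 transcriptome with kallisto and summarized transcripts per gene with tximport, per the study's methods. The deposited table holds the expected counts of 36131 genes, not normalized, of which 42.161% of values are not whole. Gene symbols were paired with 35374 of the identifiers.

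Here the expected counts were rounded to whole numbers. Genes were filtered with filterByExpr and scaled by the trimmed mean of M-values (TMM), and 16352 genes were tested in the 7 libraries (edgeR 4.0.16, R 4.3.3) by the two-sided quasi-likelihood F test with robust dispersions and Benjamini-Hochberg adjustment, with no covariate. A log2 fold change is O2-IC100 over O2-PBS, and CPM are TMM-normalized counts relative to the library total, not divided by length, so levels were not compared between genes. The study's methods and tool list name DESeq2, which was an alternative here (1.42.0), as was voom (limma 3.58.1). The other alternatives were the scaling, the filter, adding animal 10 or the RA-PBS libraries, the Y-linked level as a covariate, the thresholds and leaving out each library. Offsets that remove trends with length and GC and the libraries with Y-linked CPM over 100 alone were added after the data were seen. The offsets were fitted per library with natural splines of 4 degrees of freedom. Length and GC were those of the longest GENCODE transcript of each gene on GRCm38, and 98.93% of tested genes were matched. The procedure was tested on simulated counts.

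With 14907143 to 18705357 counts per library, a count of 3 is a share of 1.60e-05 to 2.01e-05% of a library, and this floor covers counting error only. The members, markers and gene lists were chosen with earlier results of these data known. Genes named are the 5 markers, the 15 largest changes in each direction among genes past the thresholds with a mean of at least 1 CPM, no overlap between the groups and a symbol held by 1 gene only, every list member past the thresholds, up to 4 further members of a list by mean CPM, and the genes of the study's qRT-PCR. Promoter windows are from RefSeq on GRCm38.p6, and 3 of 5 markers had one. Coordinates of genes on the authors' build were not used here, and a few genes that the rule would name are not reported here. Comparisons with RA-PBS share the O2-PBS or O2-IC100 retinas with the main comparison, and only levels are given.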

Additional observations from a re-analysis of the deposited data

Results flagged for a closer look

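Crystallin genes took 58.98% of the counts of O2-IC100 animal 10, against 0.00781 to 0.0204% in the 7 retinas compared. In the room air group they took 1.26, 4.51 and 1.45% in animals 2, 3 and 4 and 0.00691% in animal 1.

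Among the named genes, 16 had a single O2-PBS retina farther from the other 3 than Dixon's ratio test allows at its 95% level, out of 151 genes examined. Chance alone flags about 1 gene in 20, and genes of one retina are not independent. Animal 5 stood high in Stat3 (272 CPM), Il6st (202 CPM), Muc2 (122 CPM), Vcl (78.3 CPM), Lama5 (62.7 CPM), Tnfrsf12a (16.2 CPM), Adamts4 (13.8 CPM) and Pgf (8.57 CPM), and low in Pycard (2.77 CPM) and Ccnb2 (2.23 CPM). Animal 6 stood high in Atp2a1 (9.61 CPM) and low in Vgf (10.9 CPM) and Gsdmd (1.42 CPM). Animal 7 stood high in Col6a3 (9.69 CPM) and Emilin1 (8.86 CPM) and low in Gm14698 (1.79 CPM).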

How the results depend on the processing

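With 624 genes lower and 165 higher, the counts under the following alternatives stayed within 1.5 times in both directions. These were DESeq2, limma voom, 2 other scalings, 2 other filters, dispersions that were not robust and an adjusted p under 0.05, and leaving out each library in turn gave 457 to 629 lower and 143 to 237 higher. No paired analysis was possible because the groups share no animal numbers. In the other settings a count moved further. Adding animal 10 left 0 lower and 0 higher by edgeR and 234 lower and 96 higher by DESeq2, as the biological coefficient of variation of the edgeR fit went from 0.0912 to 0.4118. Adding the RA-PBS libraries left 122 lower and 36 higher, the Y-linked covariate 73 and 21, both together 23 and 13, the libraries with high Y-linked counts alone 240 and 86, and the length and GC correction 542 and 108. Without a fold minimum 2698 were lower and 2859 higher. The cause of these differences was not tested.

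Of 3169 values of 151 named genes under the alternatives, 2423 kept their direction and call, 686 kept the direction and lost the call, 5 gained a call and 55 changed sign. With animal 10 added, 26 genes changed sign, with log2 fold changes by edgeR and DESeq2 of A2m 2.17 and 2.21, Acta2 2.47 and 2.52, Adamts4 0.70 and 0.75, Ccnd1 0.80 and 0.83, Col1a1 2.23 and 2.28, Col1a2 1.38 and 1.42, Col4a1 1.28 and 1.31, Col4a2 0.95 and 0.98, Col6a3 2.27 and 2.32, Emilin1 0.60 and 0.64, Gsdmd 0.0276 and 0.0243, Hspg2 1.62 and 1.65, Lama2 1.18 and 1.23, Lama5 0.67 and 0.71, Lamb1 0.52 and 0.55, Loxl4 0.14 and 0.17, Ltbp1 0.61 and 0.64, Myh11 1.71 and 1.76, Nefl -0.0333 and -0.0276, Nid1 2.10 and 2.14, Nid2 1.44 and 1.48, Pgf 0.10 and 0.16, Pycard 0.29 and 0.32, Serpinh1 0.18 and 0.21, Sox9 0.066 and 0.0913 and Vim 1.41 and 1.44. Gfap was 0.23 and Gsdmd 0.30 with the Y-linked covariate in the fit of 11 libraries, and Gsdmd ranged from -0.20 to 0.15 when single libraries were left out. Genes of a few CPM, among them most cytokines, were limited by depth.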
